A study of Homo sapiens with 4 samples.

Results

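SERPINB3 and 9 further genes of the clade B serpins (SERPINB1, SERPINB2, SERPINB4 to SERPINB9 and SERPINB13) were followed in polyA RNA sequencing of SCC13 cells, an established human line of cutaneous squamous cell carcinoma. The 10 members were the rows with these gene names among the 60617 genes of the deposited count table. The set was selected on SERPINB3's CPM in the knockdown and control libraries compared here, so the values of the members are given as a description and no test of them is drawn on. The cells were labelled WT and had been infected with lentivirus carrying a scrambled shRNA (shScr, the control group, 2 libraries) or an shRNA against CELF2 (shCELF2, the knockdown group, 2 libraries). Cells of both groups were grown in CnT-07 medium. CELF2 is an RNA-binding protein, and the labels do not say whether both knockdown libraries carry the same hairpin, how long after infection cells were taken, or whether replicates were separate cultures; p-values then measure only the spread between these libraries, which may be technical.

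Serpins are protease inhibitors that offer an exposed reactive centre loop as bait and, once it is cut, trap the protease by a large change of shape. Clade B holds the intracellular serpins, which lack a classical secretion signal and are thought to guard cells against proteases that leak from lysosomes or granules. In stratified epithelia several of them are abundant, and the products of SERPINB3 and SERPINB4 are known as squamous cell carcinoma antigens and are used as serum markers of squamous tumours. The human genes lie in a cluster on chromosome 6 (SERPINB1, SERPINB9 and SERPINB6) and a cluster on chromosome 18 (the other 7 members, with SERPINB10, SERPINB11 and SERPINB12).

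SERPINB3 and SERPINB4 are so alike that their sequences bear on how far their counts can be told apart. The 250 bases before each RefSeq start site (GRCh38.p14) are shown first, 5′ to 3′ on the strand of the gene, with capitals at the bases that differ between them. They lie at chr18:63661894-63662143 for SERPINB3 and chr18:63644257-63644506 for SERPINB4, both on the minus strand, and GENCODE v29 places the start of each gene inside its window.
SERPINB3: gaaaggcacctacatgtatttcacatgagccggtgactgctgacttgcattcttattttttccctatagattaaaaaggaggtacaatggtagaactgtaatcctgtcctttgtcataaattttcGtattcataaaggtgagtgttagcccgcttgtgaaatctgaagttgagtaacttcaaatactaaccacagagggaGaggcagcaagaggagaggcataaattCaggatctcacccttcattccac
SERPINB4: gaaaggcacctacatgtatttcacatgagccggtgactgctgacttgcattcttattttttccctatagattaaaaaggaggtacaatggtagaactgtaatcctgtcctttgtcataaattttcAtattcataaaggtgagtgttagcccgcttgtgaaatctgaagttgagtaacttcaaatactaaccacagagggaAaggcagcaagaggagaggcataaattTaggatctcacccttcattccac
The windows differed at 3 of 250 bases and were 98.8% identical. Counted from 1 at the 5′ end and from SERPINB3 to SERPINB4, the differences were G126A, G201A and C228T. Within the coding sequences (GENCODE v29 transcripts, 1170 bases each) the genes were 95.2% identical, with 56 differing bases and a longest identical run of 129 bases. The 60-base stretch with most differences, 10, was bases 952 to 1011 of both coding sequences, shown with the same use of capitals.
SERPINB3: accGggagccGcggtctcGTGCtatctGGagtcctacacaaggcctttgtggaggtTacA
SERPINB4: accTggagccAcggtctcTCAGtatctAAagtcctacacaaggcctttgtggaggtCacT
Of all 50-base words in the SERPINB3 transcript, 53.0% also occur in a transcript of another gene, and 34.5% of 100-base words do. The other genes are SERPINB4 on the same strand and SERPINB11, whose exons overlap 620 exon bases of SERPINB3 on the opposite strand. Both were counted together, so these shares can overstate what SERPINB3 has in common with SERPINB4. For SERPINB4 the shares were 24.3% (with SERPINB3 or SERPINB11) and 3.5% (with SERPINB3 only). The next closest coding sequence to SERPINB3 was that of SERPINB13, at 66.4% identity. No source used here gives the read length, the strand setting or what was done with reads matching both genes, so the split between SERPINB3 and SERPINB4 is uncertain.

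The libraries held 17649090 to 27898889 counts. The targeted gene, CELF2, had 1 count in control replicate 1 and 0 in the other 3 libraries, so its loss was not detectable at this depth and CELF2 itself is no check of the library labels. All 14 markers of basal keratinocytes were counted, with summed levels of 14127 and 21510 CPM for control replicates 1 and 2 and 28888 and 20881 CPM for knockdown replicates 1 and 2 (CPM are counts scaled to a common library size, with TMM normalization). Of the differentiation markers, KRT1, LOR, TGM3, SPRR3, DSG1 and RPTN had 0 counts in every library, and the 22 together summed to 42.6 to 49.8 CPM. Markers of immune cells summed to 1.37 to 2.04 CPM in the controls, with PTPRC, CD3E, CD4, MS4A1 and NKG7 at 0 counts in every library. In the knockdown the immune markers summed to 12.0 CPM in replicate 1, mostly from 1 marker, and to 2.57 CPM in replicate 2. Melanocyte markers summed to 6.11 to 9.05 CPM, fibroblast markers to 41.2 to 68.0 CPM and endothelial markers to 3.38 and 4.71 CPM in the controls against 8.96 and 9.12 CPM in the knockdown. The part of such low levels in the serpin values was not tested.

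SERPINB3, an inhibitor of lysosomal cysteine proteases such as cathepsins L, S and K, was near the detection floor in control cells and well counted in the knockdown. It had 14 and 6 counts in control replicates 1 and 2, or 0.50 and 0.356 CPM, and 143 and 215 counts in knockdown replicates 1 and 2, or 7.05 and 9.05 CPM. The lower knockdown library was 14.1 times the higher control library. The log2 fold change in the fit over all genes was 4.18 ± 0.42 (SE, n = 2 against 2), an 18.2-fold difference. SERPINB4, which inhibits serine proteases such as cathepsin G and mast cell chymase, had 6 and 0 counts in the controls (0.214 and 0 CPM) and 26 counts in each knockdown library (1.28 and 1.09 CPM). Its log2 fold change was 3.17 ± 0.84 (SE), and the groups did not overlap. The exact Poisson 95% interval of SERPINB4, which covers counting error only, ran from 0.0491 to 0.291 CPM over the controls and from 0.882 to 1.55 CPM over the knockdown. Without control replicate 2 the SERPINB4 log2 fold change was 2.46. Without control replicate 1 its control counts were 0, and no fold is given for that case.

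Because the split of reads between the pair is uncertain, their sum was also taken. Counted as 1 gene, SERPINB3 and SERPINB4 stood at 0.714 and 0.356 CPM in the controls and at 8.33 and 10.1 CPM in the knockdown, a log2 fold change of 4.04 ± 0.44 (SE). SERPINB3 held 84.6% of the pair's 169 reads in knockdown replicate 1 (exact binomial 95% interval 78.3% to 89.7%) and 89.2% of 241 reads in knockdown replicate 2 (84.6% to 92.8%). In control replicate 1 it held 70.0% of only 20 reads (45.7% to 88.1%), and in control replicate 2 all 6 reads. The interval of control replicate 1 overlaps those of both knockdown libraries, so a different split of the pair between groups was not detectable at this depth. These intervals, too, cover counting error only.

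**Figure D1:**
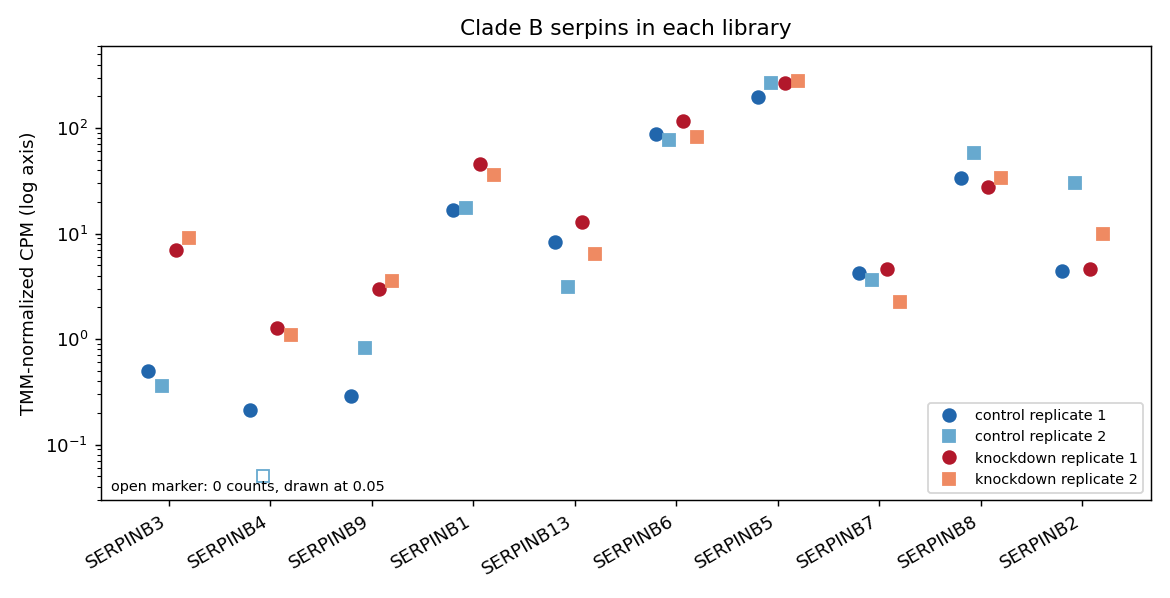
TMM-normalized CPM of the 10 clade B serpins in each library, on a log axis; each marker is 1 library and the open marker stands for 0 counts. For SERPINB3, SERPINB4, SERPINB9 and SERPINB1 both knockdown libraries lie clearly above both controls, while SERPINB2 is highest in control replicate 2 at 29.9 CPM.

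In the chromosome 6 cluster SERPINB9 and SERPINB1 were higher in both knockdown libraries and SERPINB6 was not separated. SERPINB9, the inhibitor of granzyme B that protects cells from cytotoxic granules, had 8 and 14 counts in the controls (0.286 and 0.831 CPM) and 61 and 84 in the knockdown (3.01 and 3.53 CPM). The controls differed by 2.91 times between themselves, and the lower knockdown library was still 3.62 times the higher control. Its log2 fold change was 2.62 ± 0.57 (SE), and 1.96 without control replicate 1 or 3.51 without control replicate 2. SERPINB1, the inhibitor of neutrophil elastase, cathepsin G and proteinase 3, stood at 16.8 and 17.4 CPM in the controls and at 46.0 and 36.0 CPM in the knockdown. The log2 fold change of SERPINB1 was 1.26 ± 0.21 (SE), the smallest error relative to its size among the members beside SERPINB3. SERPINB6, an inhibitor of cathepsin G and of the epidermal kallikrein KLK8, had 87.2 and 77.0 CPM in the controls and 117 and 81.4 CPM in the knockdown, so knockdown replicate 2 lay between the controls. Its log2 fold change was 0.27 ± 0.21 (SE), and -0.0034 without knockdown replicate 1.

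The promoters of the higher members differ in composition. SERPINB9, at chr6:2903310-2903559 on the minus strand, has 74.4% GC in the 250 bases before its start, against 40.8% for SERPINB3 and 39.6% for SERPINB4, and a median of 58.0% over 35116 RefSeq promoter windows. Its window is shown to set it beside that of SERPINB3, with the TATAAA match in capitals.
SERPINB9: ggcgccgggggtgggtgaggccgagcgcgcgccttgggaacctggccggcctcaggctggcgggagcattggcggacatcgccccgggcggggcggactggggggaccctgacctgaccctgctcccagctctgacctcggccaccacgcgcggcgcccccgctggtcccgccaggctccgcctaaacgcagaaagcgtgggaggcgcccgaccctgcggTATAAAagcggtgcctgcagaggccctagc
Short motifs were searched on both strands of the members' windows; SERPINB6 has 4 RefSeq windows, SERPINB7 has 3 and each other member has 1. The core promoter motif TATAAA, present in 10.7% of all windows, was found for SERPINB9, SERPINB2, SERPINB8 and SERPINB7. The motif CCAAT, in 32% of all windows, was found for SERPINB9 and SERPINB8. The AP-1 form TGANTCA, in 6.57% of all windows, was found for SERPINB2, SERPINB5, SERPINB7, SERPINB8 and SERPINB13. The STAT form TTCNNNGAA, in 6.57% of all windows, was found for SERPINB1, SERPINB7 and SERPINB8. The windows of SERPINB3, SERPINB4 and SERPINB6 held none of these motifs, which says only that the letters are not there.

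The remaining 5 members of the chromosome 18 cluster were not separated by group, or only barely. SERPINB5 (maspin), a member that does not inhibit proteases and is known as a tumour suppressor of epithelia, was the most abundant, with 199 and 265 CPM in the controls and 267 and 279 CPM in the knockdown. The lower knockdown library exceeded the higher control by a factor of 1.01, and the log2 fold change was 0.24 ± 0.19 (SE), or 0.04 without control replicate 1. SERPINB13, an inhibitor of cathepsins L and K in stratified epithelia, had 8.25 and 3.09 CPM in the controls and 12.9 and 6.39 CPM in the knockdown, which overlap. Its log2 fold change was 0.75 ± 0.52 (SE), and ran from 0.17 without knockdown replicate 1 to 1.63 without control replicate 1. SERPINB7 (megsin), whose loss causes a palmoplantar keratosis, had 4.21 and 3.62 CPM in the controls and 4.59 and 2.23 CPM in the knockdown, a log2 fold change of -0.21 ± 0.43 (SE) that became 0.22 without knockdown replicate 2 and -0.80 without knockdown replicate 1.

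SERPINB8, an inhibitor of the proprotein convertase furin, had 33.4 and 57.6 CPM in the controls and 27.4 and 33.7 CPM in the knockdown. Knockdown replicate 2 lay just above control replicate 1, and the log2 fold change of -0.57 ± 0.28 (SE) became -0.11 without control replicate 2. SERPINB2 (plasminogen activator inhibitor type 2), which inhibits urokinase, varied more between the controls than between the groups. It had 4.46 CPM in control replicate 1 and 29.9 CPM in control replicate 2, a 6.70-fold difference, and 4.59 and 9.80 CPM in the knockdown. The log2 fold change of SERPINB2 was -1.24 ± 0.77 (SE), and 0.71 without control replicate 2, so 1 library set its direction. SERPINB2 shares exon bases with SERPINB10 and SERPINB8 with HMSD. SERPINB10 had 1 count in each knockdown library and 0 in the controls, and SERPINB11 and SERPINB12 had 0 counts in all 4 libraries.

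**Figure D2:**
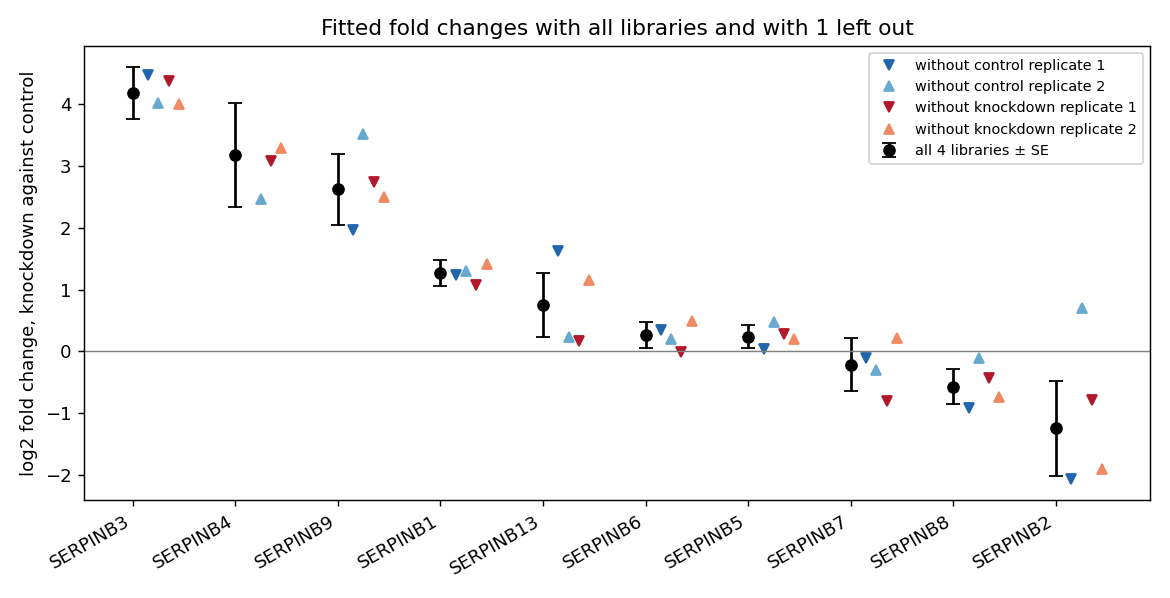
Log2 fold change of each member with all 4 libraries (black, ± SE) and with 1 library left out (triangles); SERPINB4 has no value without control replicate 1, where its control counts are 0. SERPINB3 stays between 3.99 and 4.47, whereas SERPINB2 ranges from -2.06 to 0.71.

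Across all genes, 133 of the 15170 tested passed at 0.05 in edgeR's quasi-likelihood fit after Benjamini-Hochberg adjustment, which is 0.877% of them (0.606% higher and 0.270% lower). Of the 10 members, 2 passed, SERPINB3 and SERPINB1, both higher. In 5 members both knockdown libraries lay above both controls (SERPINB1, SERPINB3, SERPINB4, SERPINB5 and SERPINB9), as did 27.1% of all tested genes, and in 0 members both lay below, against 27.8%. A fitted fold of at least 2 was reached upward by 4 members (SERPINB1, SERPINB3, SERPINB4 and SERPINB9) and by 8.83% of all tested genes, and downward by SERPINB2 and by 3.80%. Since the set was chosen from the same comparison, nothing is read from these counts. The calls are also fragile: without control replicate 1 or without knockdown replicate 2, 0 members passed, with 0 and 7 genes called in the whole table and 1724 and 3171 genes at an unadjusted p below 0.05. An unadjusted p below 0.05 was found for 3350 of 15170 genes (22.1%), and 1386 of 13993 passed with DESeq2 (9.90%), which gives no adjusted p to the other genes. The median log2 fold change of the members was 0.51, beside -0.004 over all tested genes. All 10 members passed the filter on low counts, but SERPINB3, SERPINB4 and SERPINB9 did so only through their knockdown libraries, since fewer than 2 control libraries reached 0.464 CPM.

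Within the family, the largest fold changes were those of SERPINB3, SERPINB4 and SERPINB9, the rarest members in the control libraries. They passed the filter on low counts only through their knockdown libraries, and the set was chosen on SERPINB3. Nothing is therefore read from this order. The 10 genes summed to 354 and 455 CPM in the controls and to 491 and 463 CPM in the knockdown, so control replicate 1 was low and the other 3 libraries lay close together. SERPINB5 made up 56.2% and 58.3% of the family's counts in control cells, against 54.4% and 60.4% after knockdown, and SERPINB6 was second in each library, at 16.9% to 24.6%. SERPINB1 took 4.74% and 3.82% in control cells, against 9.38% and 7.77% after knockdown. For SERPINB3 the shares were 0.141% and 0.0782% in control cells, against 1.44% and 1.96% after knockdown. In both groups SERPINB3 was a minor transcript of the family.

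**Figure D3:**
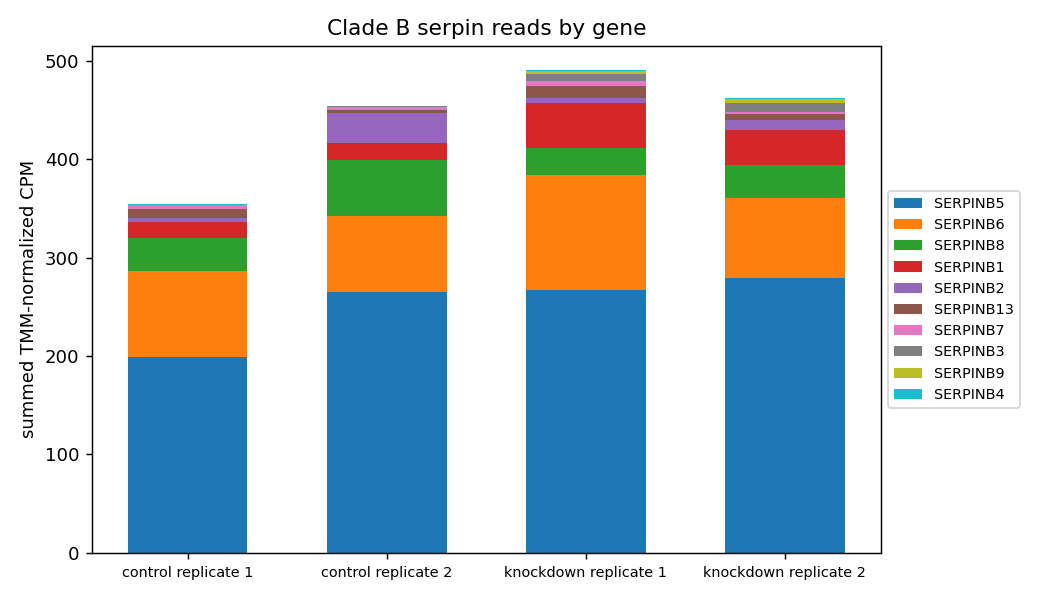
Summed TMM-normalized CPM of the 10 clade B serpins in each library, stacked by gene. SERPINB5 fills more than 54% of each bar, the SERPINB2 segment is thickest in control replicate 2, and SERPINB1 is thicker in both knockdown libraries.

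Levels of different genes were compared per kilobase of exon (CPM divided by the length of all GENCODE exons of the gene). In the controls the order was SERPINB5 (mean 58.9), SERPINB8 (7.76), SERPINB2 (6.25), SERPINB6 (6.22), SERPINB1 (5.52), SERPINB7 (1.49), SERPINB13 (1.25), SERPINB3 (0.241), SERPINB9 (0.136) and SERPINB4 (0.0532). The ranges of SERPINB8 and SERPINB2, of SERPINB2 and SERPINB6, of SERPINB7 and SERPINB13, of SERPINB3 and SERPINB9, and of SERPINB9 and SERPINB4 overlap between the control libraries, while those of the other neighbours in this order do not. In the knockdown SERPINB1 (13.2) was second, and SERPINB3 (4.53) had rank 5, above SERPINB2 (2.62) without overlap and below SERPINB8 (5.21) with overlap. SERPINB9 (0.794) and SERPINB4 (0.590) were still the lowest. The exons of SERPINB6 add up to 13201 bases over many isoforms, while the transcript used for the sequence comparison has 1566, so dividing by all exons gives a low level per kilobase.

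Along the chromosome 18 cluster the largest increases were in SERPINB3 and SERPINB4, which are neighbours among the members. SERPINB11, with 0 counts in all libraries, starts between them. Since the split of reads between the pair is uncertain, they may not be separate observations. SERPINB4 starts 17.7 kb from SERPINB3, on the same minus strand, and the other members of the cluster lie on the plus strand. On the scale of distance from the SERPINB3 start, SERPINB13 at -75.0 kb had a log2 fold change of 0.75, and SERPINB7 at 91.0 kb had -0.21. The outermost members, SERPINB5 at -185.2 kb and SERPINB8 at 308.0 kb, had 0.24 and -0.57. Of 8 tested genes that flank this cluster, 0 passed with edgeR's quasi-likelihood test (beside 0.877% of all genes). DESeq2 gave 0 (beside 9.90%), and 0 had an unadjusted p below 0.05 (beside 22.1%). With so few genes, nothing is read from these counts. The median log2 fold change of the 8 genes was -0.16, with a range of -0.68 (BCL2) to 0.54 (RNF152). With 1 library left out, BCL2 ran from -1.31 without knockdown replicate 2 to -0.11 without control replicate 1. Around the chromosome 6 cluster 0 of 14 genes passed with edgeR (beside 0.877% of all genes). DESeq2 gave 2 (beside 9.90%), and 2 had an unadjusted p below 0.05 (beside 22.1%). With limma-voom 0 of the 14 passed, but so did 0 of all 15170 genes, so that 0 says nothing about a list. The median was 0.31, with the highest value in SLC22A23 (0.91 ± 0.24, SE).

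**Figure D4:**
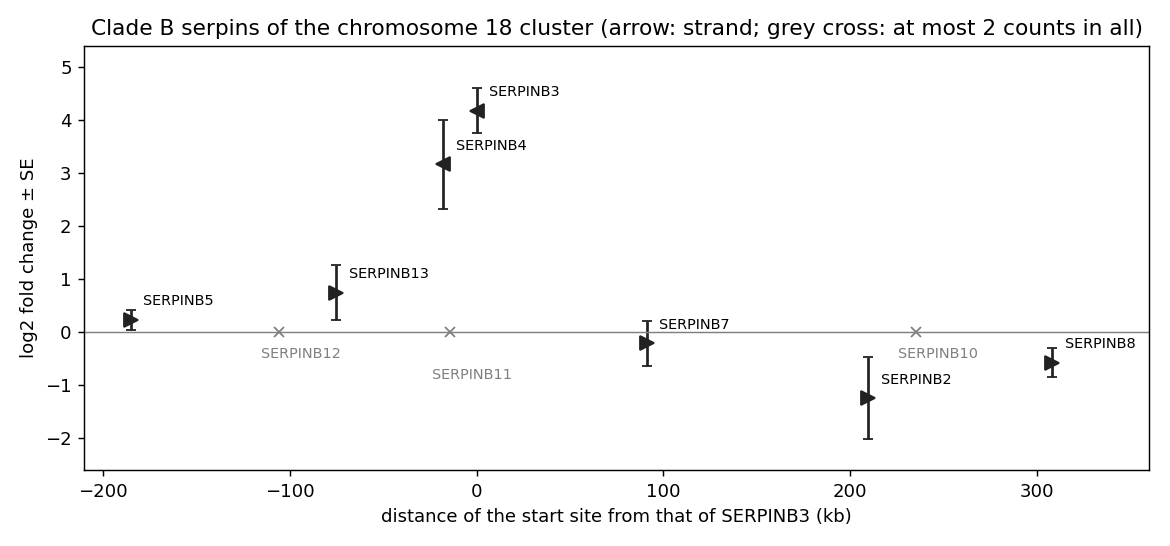
Log2 fold change (± SE) of the clade B serpins on chromosome 18 against the distance of their start site from that of SERPINB3 in kb; arrowheads give the strand and grey crosses mark 3 genes with at most 2 counts in all. The pair SERPINB3 and SERPINB4 stands at 4.18 and 3.17, and the plus-strand genes around it lie between -1.24 and 0.75.

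The proteases that these serpins are known to inhibit were measured in the same libraries. Of 24 listed proteases 17 were tested. With edgeR's quasi-likelihood test 1 passed, upward (beside 0.877% of all genes in either direction), and 16 did not. DESeq2 gave 2 (beside 9.90%), limma-voom 0 (beside 0 of all genes), and 4 had an unadjusted p below 0.05 (beside 22.1%). The median log2 fold change was 0.65. CTSL, a main target of SERPINB3 and SERPINB13, had 106 and 132 CPM in the controls and 134 and 174 CPM in the knockdown, a log2 fold change of 0.37 ± 0.20 (SE). CTSB, a lysosomal cathepsin abundant in these cells, had 295 and 388 CPM in the controls and 612 and 476 CPM in the knockdown (0.67 ± 0.21). CTSV, a close relative of CTSL, had -0.17 ± 0.20, and CTSS and CTSK stayed below 1.5 CPM in every library. The targets of SERPINB4, CTSG and CMA1, had 0 counts in all libraries, as had GZMB, the target of SERPINB9. For SERPINB2, the targets PLAU and PLAT stood at 0.65 ± 0.23 and 0.46 ± 0.23 on the same scale, and the target of SERPINB8, FURIN, had 0.18 ± 0.16; PLAU shares exon bases with C10orf55.

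PRTN3, which encodes proteinase 3, a target of SERPINB1 otherwise known from neutrophil granules, was the protease that passed. It stood at 0.179 and 0.178 CPM in the controls and at 1.92 and 1.77 CPM in the knockdown, a log2 fold change of 3.33 ± 0.55 (SE; adjusted p = 0.0483 with edgeR's quasi-likelihood test). PRTN3 was tested only through its knockdown libraries, since both controls lay below the 0.464 CPM of the filter. The call was lost when any of the 4 libraries was left out (adjusted p from 0.0584 without knockdown replicate 1 to 0.224 without control replicate 1; 0.0602 without control replicate 2 and 0.107 without knockdown replicate 2), and with limma-voom (adjusted p = 0.0559), while with 1 library left out the log2 fold change stayed between 3.28 and 3.38.

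Inhibitors outside clade B were read as well. Of 21 serpins of other clades 8 were tested and 0 passed with edgeR's quasi-likelihood test (beside 0.877% of all genes). DESeq2 gave 4 (beside 9.90%), limma-voom 0 (beside 0 of all genes), and 4 had an unadjusted p below 0.05 (beside 22.1%). The median log2 fold change of the 8 was 1.09. For SERPINF2, the inhibitor of plasmin, the log2 value was 2.11 ± 0.45 (SE), and for SERPING1, the C1 inhibitor, 1.11 ± 0.29. Of 14 other protease inhibitors of the epidermis 11 were tested and 0 passed with edgeR (beside 0.877% of all genes). DESeq2 gave 3 (beside 9.90%), limma-voom 0 (beside 0 of all genes), and 5 had an unadjusted p below 0.05 (beside 22.1%). The median of the 11 was 0.49. The metalloproteinase inhibitor TIMP3 had 2.43 ± 0.44 (1.70 without knockdown replicate 1) and the elastase inhibitor SLPI 1.11 ± 0.21.

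Lists of possible upstream genes and of the cell states that SERPINB3 marks were read in the same fit. Of 21 tested regulators and cytokine receptors 1 passed with edgeR, upward (beside 0.877% of all genes in either direction). DESeq2 gave 4 (beside 9.90%), limma-voom 0 (beside 0 of all genes), and 6 had an unadjusted p below 0.05 (beside 22.1%). The gene that passed with edgeR was IL20RB, a receptor subunit for cytokines of the interleukin 20 group. It went from 31.1 and 34.4 CPM to 181 and 91.7 CPM, a log2 fold change of 2.06 ± 0.31 (SE; adjusted p = 0.0483 with edgeR's quasi-likelihood test, 0.143 without control replicate 1 and 0.0558 with limma-voom); its exons overlap those of NCK1 and IL20RB-AS1. The AP-1 subunits JUNB, whose exons overlap HOOK2, and JUN had values of 1.36 ± 0.24 and 0.84 ± 0.21 on the log2 scale. The other AP-1 subunits of the list, FOS and FOSL1, had 0.32 ± 0.36 and -0.42 ± 0.50, with overlapping groups. In inflamed epidermis, 9 listed genes were tested and 0 passed with edgeR (beside 0.877% of all genes). DESeq2 gave 3 (beside 9.90%), limma-voom 0 (beside 0 of all genes), and 3 had an unadjusted p below 0.05 (beside 22.1%). The median was 0.85, with S100A9 at 1.10 and S100A8 at 1.82. S100A8 had 2.64 without control replicate 1 and 1.37 without control replicate 2. In keratinocyte differentiation, 7 listed genes were tested and 0 passed with edgeR (beside 0.877% of all genes). DESeq2 gave 1 (beside 9.90%), limma-voom 0 (beside 0 of all genes), and 1 had an unadjusted p below 0.05 (beside 22.1%). The median was -0.12, with the highest value in SBSN (1.04 ± 0.53, SE). SBSN was low, at 0.750 and 0.475 CPM in the controls and 1.58 and 1.01 CPM in the knockdown. It was not the gene in either count (adjusted p = 0.507 with DESeq2, unadjusted p = 0.0891 with edgeR's quasi-likelihood test).

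The genes whose pattern over the 4 libraries was nearest to that of SERPINB3, by Euclidean distance between centred log2(CPM + 0.5) values among 13619 genes of at least 1 CPM, were LBH (distance 0.620), HSPB8 (0.660), INHBB (0.772), PLEKHA7 (0.795) and CYP1B1 (0.797). LBH, a transcription cofactor, had 0.214 and 0.178 CPM in the controls and 3.16 and 4.29 CPM in the knockdown. With 4 libraries in 2 groups this likeness mostly restates a high value in both knockdown libraries.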

How the data were processed

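PolyA RNA was sequenced from TruSeq libraries of SCC13 cells, per the labels' protocols. The authors deposited raw read counts per Ensembl gene, 1 column per library; HISAT2, edgeR and GRCh38 are named in the submitters' processing notes without versions. No source used here gives the counting program, the annotation or the strand setting. Groups and replicate numbers came from the sample titles. Counts were tested with edgeR 4.0.16 (R 4.3.3; quasi-likelihood test, TMM, filterByExpr at a minimum count of 10, Benjamini-Hochberg adjustment over 15170 genes at 0.05), 2 libraries against 2; members with any count were kept in each fit but that with the 1 CPM filter, and all 10 passed the filter as reported; standard errors are the fold change over the root of F. The procedure was run on simulated data with the same dispersion for all genes. Changes were planted only in genes counted better than SERPINB3, SERPINB4, SERPINB9 and PRTN3, so genes at their levels were not covered. The members and gene lists were chosen with earlier results of these data known. Named genes were the members, list genes past the threshold, up to 3 further per list with the smallest p, and 5 nearest to SERPINB3. One gene that this rule names is not reported here. Alternatives were DESeq2 1.42.0, limma-voom (limma 3.58.1), other scalings and filters, a replicate block and each library left out. GENCODE v29 (GRCh38) held 58542 of 60617 gene IDs; promoters came from RefSeq (GRCh38.p14), matched for all 10 members. Floors of 3 counts equal 0.107 to 0.178 CPM. Replicates differed beyond counting noise (chi-square per degree of freedom 54.3 and 48.1).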

Additional observations from a re-analysis of the deposited data

How the results depend on the processing

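The direction of SERPINB1, SERPINB3, SERPINB5, SERPINB8, SERPINB9 and SERPINB13 held in all 11 alternatives, and that of SERPINB4 in the 10 that gave a value. Directions turned for SERPINB2 without control replicate 2, SERPINB6 without knockdown replicate 1, and SERPINB7 and TGM1 without knockdown replicate 2; with 1 library left out they ranged from -2.06 to 0.71, from -0.0034 to 0.50, from -0.80 to 0.22 and from -0.06 to 1.43. SERPINB3 no longer passed with limma-voom (log2 fold change 4.14, adjusted p 0.0558), nor without control replicate 1 or knockdown replicate 2 (range with 1 library left out 3.99 to 4.47). The sum of SERPINB3 and SERPINB4 behaved alike (4.06 with limma-voom, 3.70 to 4.67 with 1 library left out). Members passing numbered 2 as reported, 5 with no filter on low counts, 0 with limma-voom (all genes: 3402 at an unadjusted p below 0.05), 4 with the replicate block and 0 to 3 with 1 library left out. Genes called over the whole table numbered 133, against 207 with DESeq2 size factors, 394 with no scaling, 2139 with no filter, 1386 with DESeq2, 0 with limma-voom and 0 to 616 with 1 library left out. With the replicate block 1579 of 15170 genes were called. Without the filter 25916 genes were tested, and DESeq2 gave an adjusted p to 13993. Since the members were chosen from this comparison, nothing is read from how many passed. The replicate numbers pair the samples only by name (correlation of same-numbered deviations 0.200 over genes). The cause of these shifts was not tested. Depth limits SERPINB3, SERPINB4 and SERPINB9, with 0 to 14 counts per control library.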

Other observations

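Some members differed more between libraries of 1 group than between groups. SERPINB13 was 2.67 times higher in control replicate 1 than in control replicate 2 and 2.02 times higher in knockdown replicate 1 than in knockdown replicate 2. The epidermal kallikrein KLK7 had the same arrangement, with 28.3 and 1.13 CPM in the controls and 63.9 and 10.6 CPM in the knockdown. SERPINB2 was arranged the other way, 6.70 times higher in control replicate 2 and 2.14 times higher in knockdown replicate 2. These genes were chosen after their values were seen, and the sources used here do not say what libraries with the same number share.

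CTSH, a lysosomal cysteine protease, had 3.61 and 0.415 CPM in the controls and 14.4 and 1.09 CPM in the knockdown, the same arrangement as SERPINB13. Within clade B coding sequences, SERPINB8 and SERPINB9, which lie on different chromosomes, were 72.7% identical, the closest pair after SERPINB3 and SERPINB4, and had log2 fold changes of -0.57 and 2.62.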
